A study of Rattus norvegicus with 12 samples.

Results

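Expression of 9 genes of oligodendrocytes and myelin (Mbp, Mog, Mag, Mobp, Cnp, Cldn11, Ugt8, Olig1 and Sox10) was examined in the dorsal striatum of 12 male rats. A gene was followed through every non-control probe on the array that carried its name, whatever the signal of the probe, which gave 13 probes for 8 genes. The files list Cnp under its older name Cnp1, so that a search by name misses it, and its probe was found through its RefSeq accession, which makes 14 of the 41012 probes on the array. In all 12 rats the dopamine neurons of the left substantia nigra had been lesioned by an injection of 9 µg of 6-hydroxydopamine (6-OHDA), and no unlesioned rats were compared here. The 6-OHDA group (n = 3) had the lesion alone. The HFS group (n = 3) also had continuous high frequency stimulation of the subthalamic nucleus on the side of the lesion, given over 5 days (130 Hz, pulse width 80 µs, current 60 µA). The DOPA group (n = 3) received 25 mg/kg L-DOPA with 12.5 mg/kg benserazide for 19 days, and the DOPA/HFS group (n = 3) received both treatments, the stimulation falling in the last days of the L-DOPA course. The labels and methods give no strain or age, the HFS and DOPA/HFS groups carry an electrode for which the others have no sham, and each array holds RNA from pooled punches of the striatum of what the labels call 1 rat.

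Oligodendrocytes wrap axons of the central nervous system in myelin, a spiral of membrane that is compacted where its inner faces are held together and that keeps thin cytoplasmic channels elsewhere. In the striatum most of it lies in the bundles of fibers that cross the nucleus. Sox10, a transcription factor of the SOX family, is needed for oligodendrocytes to mature and to switch on the genes of myelin proteins, and Olig1, a basic helix-loop-helix factor, marks the lineage from precursor to mature cell. A change of these RNAs in a piece of tissue can come from fewer cells or from less RNA per cell, which cannot be told apart in bulk tissue.

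The share of spots well above background was 50.5 to 63.2% over the 12 arrays. A total of 24334 probes, those well above background in at least a share of 0.4 of the arrays, were tested, among them 13 of the 14 probes of the 9 genes. Each of these 13 was well above background on 12 of 12 arrays, so that defining markers of oligodendrocytes were present in every sample, whereas the remaining Ugt8 probe (A_43_P12003) was well above background on 0 of 12 arrays and is given no level. The array of DOPA/HFS replicate 3 stood apart, with 4175 spots marked as outliers against 2 to 25 on the other arrays. One probe, Mbp A_43_P11782, was saturated there and also marked as an outlier, so that the fit for this probe has 2 values in the DOPA/HFS group. Each of the 3 slides carried 1 array of every group, so that rats with the same replicate number shared a slide, while the position on the slide was fixed for each group, and position and group cannot be told apart.

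No probe of the 9 genes passed the test in any comparison. A call required an adjusted p below 0.1 in limma together with a fold above 1.2 or below 0.8. By this rule 0 of the 13 probes and 0% of all probes were called for HFS vs 6-OHDA, 0 of 13 and 0.00411% for DOPA vs 6-OHDA, and 0 of 13 and 0% for DOPA/HFS vs 6-OHDA. The background was thus nearly empty: the 1 probe called was for Igsf5, an immunoglobulin superfamily gene, in the DOPA group (log2 difference 1.89, SE 0.22, adjusted p = 0.0698 by limma). At an unadjusted p under 0.05, 1 of the 13 probes stood in HFS vs 6-OHDA against 2.24% of all probes, 1 in DOPA vs 6-OHDA against 2.49%, and 0 in DOPA/HFS vs 6-OHDA against 2.67%. The moderated F test over the 4 groups called 0 of 13 and 0.00411% of all probes. At an unadjusted p under 0.05 it held 1 of 13 and 2.72%.

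**Figure D1:**
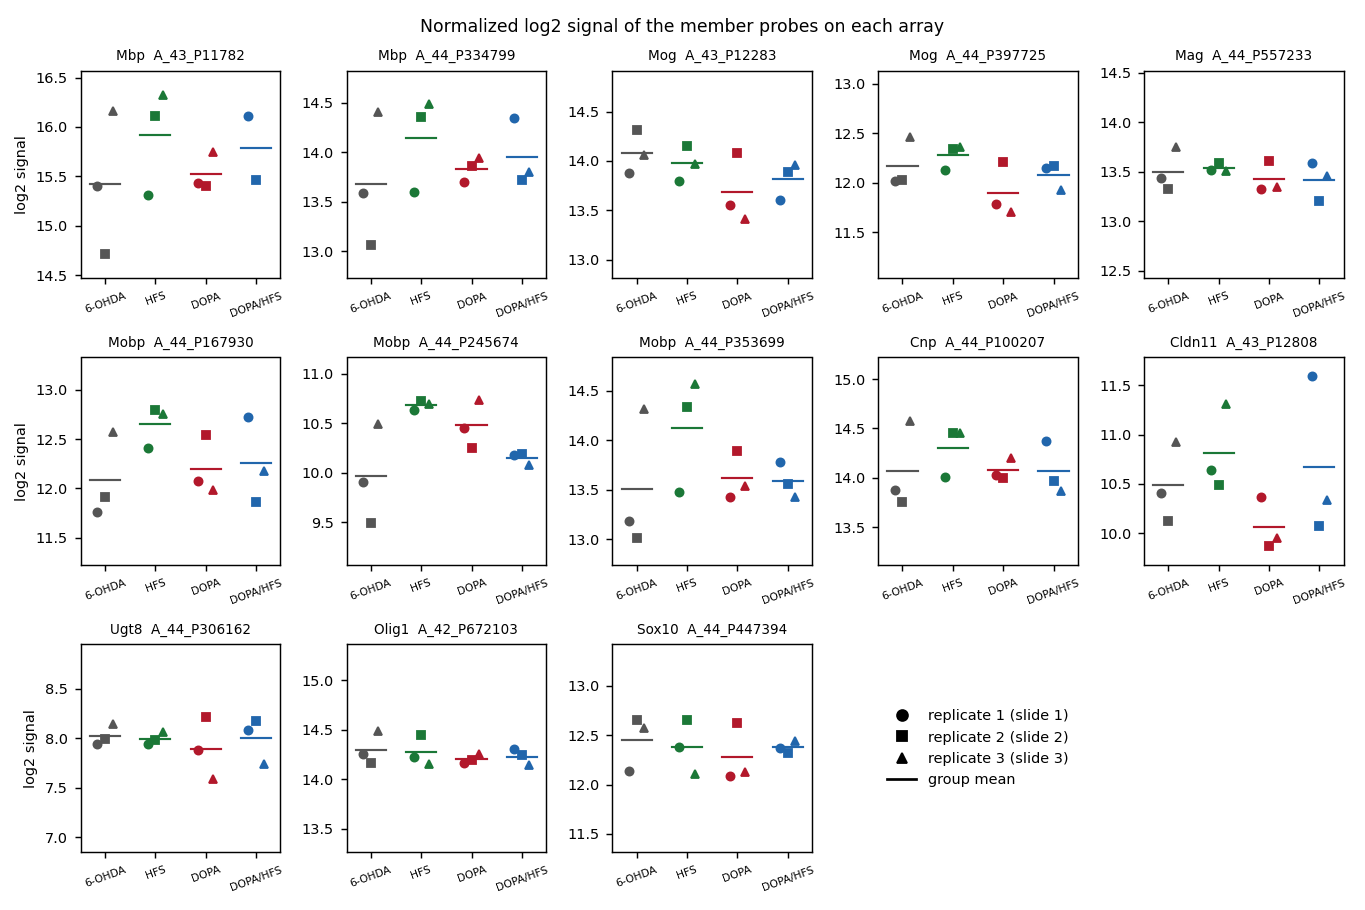
Normalized log2 signal of the 13 probes tested (y axis, every panel spanning the same log2 range) in the 4 groups (x axis); each point is 1 rat, its shape gives the replicate and slide, and the line is the group mean. The Mobp probe A_44_P245674 is the one whose 3 HFS rats, at 10.64 to 10.73, all lie above the 3 rats with the lesion alone, at 9.49 to 10.49.

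Among the proteins of compact myelin, Mobp had the largest difference with HFS. It encodes the myelin-associated oligodendrocyte basic protein, a small protein found on the inner faces of compact myelin. On probe A_44_P245674 the normalized log2 signal was 9.91, 9.49 and 10.49 in the 6-OHDA rats, 10.64, 10.73 and 10.70 in the HFS rats, 10.45, 10.25 and 10.74 in the DOPA rats and 10.18, 10.18 and 10.08 in the DOPA/HFS rats, in order of replicate. The 3 HFS rats were alike and all lay above the lesion group, the DOPA rats overlapped with it, and the DOPA/HFS rats lay inside its range. The log2 difference HFS minus 6-OHDA was 0.72 (SE 0.22), a fold of 1.65, with an unadjusted p of 0.00793 and an adjusted p of 0.999 by limma. In the exact two-sided permutation test its p was 0.1, the smallest that 3 against 3 rats allow. Of all probes, 2.81% had 3 HFS rats above the 3 rats with the lesion alone, and 1 of the 13 probes did. Within the slides the difference was 0.73, 1.23 and 0.21. Groups that do not overlap give a positive difference for any pairing of rats, so that its sign on the slides adds no support. Without 6-OHDA replicate 3, the highest of the lesion group, it was 0.99, and without replicate 2, the lowest, 0.49. The DOPA rats differed from the lesion group by 0.51 (SE 0.22, unadjusted p = 0.0421, adjusted p = 1 in limma) and the DOPA/HFS rats by 0.18 (SE 0.22).

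The other probes of Mobp pointed the same way with a wider spread. The signal of A_44_P353699 was 13.18, 13.01 and 14.32 in the 6-OHDA rats and 13.48, 14.34 and 14.57 in the HFS rats. One lesioned rat, replicate 3, therefore lay as high as the HFS rats, and the groups overlapped (log2 difference 0.62, SE 0.35). On A_44_P167930 the log2 difference was 0.57 (SE 0.27), with 6-OHDA rats at 11.76 to 12.57 and HFS rats at 12.41 to 12.79. With the 3 probes averaged, the log2 difference of Mobp was 0.64, and the HFS rats no longer cleared the lesion group.

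Mbp encodes myelin basic protein, which holds the inner membrane faces of compact myelin together. Its probe A_44_P334799 read 13.58, 13.06 and 14.40 in the 6-OHDA rats, 13.60, 14.35 and 14.49 in the HFS rats, 13.70, 13.86 and 13.94 in the DOPA rats and 14.35, 13.72 and 13.80 in the DOPA/HFS rats. The lesion group alone spanned nearly the whole range of the gene, and of the 9 treated rats HFS replicate 3 alone lay outside it, just above. The log2 difference from 6-OHDA was 0.46 (SE 0.33) in the HFS group, 0.15 (SE 0.33) in the DOPA group and 0.27 (SE 0.33) in the DOPA/HFS group. Probe A_43_P11782 gave 0.49, 0.10 and 0.36 (SE 0.37, 0.37 and 0.42), the last without DOPA/HFS replicate 3. For the HFS group the 95% interval of the log2 difference on A_43_P11782 ran from -0.34 to 1.32.

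Cldn11 encodes claudin 11, which forms the tight junctions between the turns of central myelin. Its signal was 10.41, 10.13 and 10.93 in the 6-OHDA rats, 10.64, 10.49 and 11.31 in the HFS rats, 10.36, 9.87 and 9.95 in the DOPA rats and 11.59, 10.08 and 10.34 in the DOPA/HFS rats. The highest and the lowest array both belong to rats given L-DOPA, and DOPA/HFS replicate 1 alone lay more than 1 log2 unit above the other rats of its group. The log2 differences from 6-OHDA were 0.33, -0.43 and 0.18 for HFS, DOPA and DOPA/HFS, each with an SE of 0.38, and none was called. Without DOPA/HFS replicate 1 the DOPA/HFS value was -0.28.

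The proteins outside compact myelin had smaller differences with HFS. Cnp encodes the enzyme 2',3'-cyclic nucleotide 3'-phosphodiesterase, which keeps the cytoplasmic channels of myelin open. Its signal was 13.88, 13.76 and 14.58 in the 6-OHDA rats, 14.01, 14.45 and 14.45 in the HFS rats, 14.03, 13.99 and 14.21 in the DOPA rats and 14.37, 13.97 and 13.87 in the DOPA/HFS rats. Every treated rat lay within the range of the lesion group. The log2 difference was 0.23 (SE 0.23) for HFS, 0.01 (SE 0.23) for DOPA and 0.00 (SE 0.23) for DOPA/HFS.

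Mag encodes the myelin-associated glycoprotein of the innermost membrane, which faces the axon. Its group means lay between 13.42 and 13.54, and the log2 differences from 6-OHDA were 0.04, -0.08 and -0.08 (SE 0.16). For HFS the 95% interval was -0.32 to 0.39.

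Mog encodes the myelin oligodendrocyte glycoprotein on the outermost surface of the sheath, known as a target of antibodies in demyelinating disease. On probe A_43_P12283 the signal was 13.88, 14.31 and 14.06 in the 6-OHDA rats, 13.80, 14.16 and 13.97 in the HFS rats, 13.55, 14.08 and 13.42 in the DOPA rats and 13.60, 13.89 and 13.96 in the DOPA/HFS rats. DOPA replicates 1 and 3 lay below the lesion group and DOPA replicate 2 inside it. The log2 difference DOPA minus 6-OHDA was -0.40 (SE 0.20, 95% interval -0.84 to 0.04) on this probe and -0.27 (SE 0.18) on A_44_P397725, with unadjusted p of 0.0734 and 0.161 and an adjusted p of 1 for both in limma.

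Ugt8, the enzyme that makes galactosylceramide, the lipid in which myelin is rich, had group means of 7.89 to 8.03 on its measured probe. The log2 differences were -0.03, -0.13 and -0.03 for HFS, DOPA and DOPA/HFS (SE 0.18).

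Both transcription factors stayed close to the lesion group. Olig1 read 14.25, 14.16 and 14.49 in the 6-OHDA rats, 14.22, 14.45 and 14.16 in the HFS rats, 14.16, 14.20 and 14.26 in the DOPA rats and 14.30, 14.25 and 14.14 in the DOPA/HFS rats. The log2 differences were -0.02, -0.09 and -0.07 (SE 0.14), and for HFS the 95% interval of -0.33 to 0.28 is the narrowest of the 13 probes. Sox10 read 12.14, 12.65 and 12.58 with the lesion alone, 12.38, 12.66 and 12.11 with HFS, 12.08, 12.63 and 12.13 with DOPA and 12.37, 12.32 and 12.44 with DOPA/HFS. Its log2 differences were -0.07, -0.17 and -0.08 (SE 0.20).

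**Figure D2:**
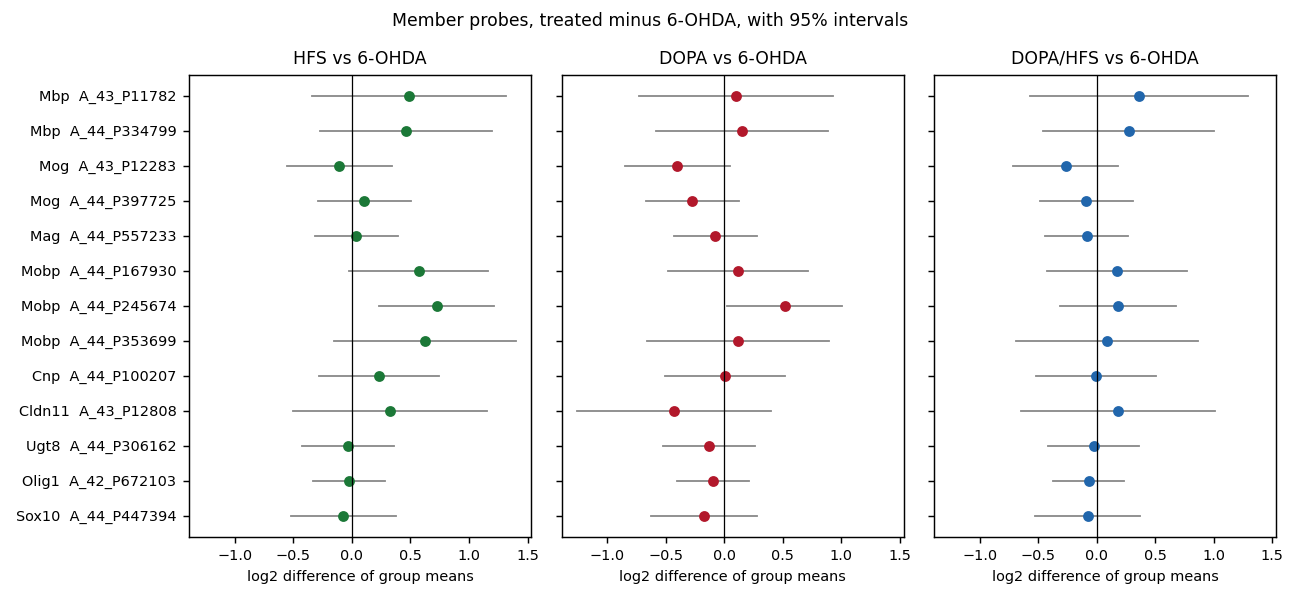
Log2 difference of each treated group from 6-OHDA (x axis, treated minus 6-OHDA) for the 13 probes (rows), with 95% intervals from the limma fit of 12 arrays. The intervals of 12 probes hold 0 in the HFS panel and of 12 in the DOPA panel, the exception in both being Mobp A_44_P245674, and all 13 hold 0 in the DOPA/HFS panel.

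Gene by gene, with the probes of a gene averaged, 6 of the 9 genes were higher and 3 lower with HFS than with the lesion alone, with a median log2 difference of 0.04 and a range of -0.07 (Sox10) to 0.64 (Mobp). With DOPA, 3 were higher and 6 lower (median -0.09, from -0.43 for Cldn11 to 0.25 for Mobp). In the DOPA/HFS group 3 were higher and 6 lower (median -0.03, from -0.18 for Mog to 0.32 for Mbp). Some of these directions rest on values near 0. Mog counted as higher with HFS at 0.00024, its probes giving -0.11 and 0.11. Cnp counted as higher with DOPA at 0.0056 and as lower with DOPA/HFS at -0.0038. The share of all probes that were higher is not given beside these counts. The medians over all probes tested were 0.02, 0.00 and 0.00. The quartiles over all probes ran from -0.13 to 0.16 for HFS. Mobp, Mbp, Cldn11 and Cnp lay outside this middle range and the other 5 genes inside it. By definition as many of all probes lie outside the quartiles as inside. For DOPA the quartiles ran from -0.13 to 0.12, with Cldn11, Mog, Mobp, Sox10, Ugt8 and Mbp outside. For DOPA/HFS they ran from -0.15 to 0.14, with Mbp, Mog, Cldn11 and Mobp outside. These comparisons share the 3 lesioned rats, whose replicate 2 and replicate 3 hold the lowest and the highest value of both Mbp and Mobp in their group on 4 of the 5 probes of these genes.

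Stimulation was also compared between rats that received L-DOPA. Of the 9 genes 6 were higher and 3 lower in DOPA/HFS than in DOPA, with a median log2 difference of 0.10 and a range of -0.10 (Mobp) to 0.61 (Cldn11, SE 0.38), the latter 0.15 without DOPA/HFS replicate 1. Mag and Cnp counted as lower there at -0.0072 and -0.0095, and the median over all probes was -0.0033. On Mobp A_44_P245674 the log2 difference was -0.33 (SE 0.22, unadjusted p = 0.165, adjusted p = 1 in limma), and on the other Mobp probes 0.06 and -0.03. Here 0 of 13 probes and 0% of all probes were called, 0 of 13 and 3.82% had an unadjusted p under 0.05, and for 1 of 12 probes with a value on every array, Mobp A_44_P245674, the DOPA/HFS rats all lay below the DOPA rats, as for 5.64% of all probes. Against HFS, 8 of the 9 genes were lower in DOPA/HFS (median -0.15), most of all Mobp (-0.49). Sox10 (-0.0041) and Olig1 (-0.05) count among the 8. Over all probes the median was -0.02, with quartiles of -0.16 and 0.11, and the median of the 9 genes lay between these quartiles. On Mobp A_44_P245674 the log2 difference DOPA/HFS minus HFS was -0.54 (SE 0.22, unadjusted p = 0.0338, adjusted p = 1 in limma), and the 3 DOPA/HFS rats lay below the 3 HFS rats, as for 4.09% of all probes. Called were 0 of 13 probes and 0% of all, while 1 of 13 and 2.45% had an unadjusted p under 0.05.

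The effect of stimulation without L-DOPA was set against that with L-DOPA as an interaction, (DOPA/HFS - DOPA) - (HFS - 6-OHDA). For Mobp A_44_P245674 stimulated rats lay above unstimulated ones without L-DOPA (10.64 to 10.73 against 9.49 to 10.49) and below them with it (10.08 to 10.18 against 10.25 to 10.74). The share of all probes with both is not given. The interaction was -1.06 on the log2 scale (SE 0.32, 95% interval -1.75 to -0.36), with an unadjusted p of 0.00658 and an adjusted p of 1 by limma, so that the difference failed the correction. It was -1.02 without the array of DOPA/HFS replicate 3. The other probes of Mobp gave -0.51 (SE 0.38) and -0.66 (SE 0.50), and those of Mbp -0.34 (SE 0.47, A_44_P334799) and -0.22 (SE 0.56, A_43_P11782). The interaction called 0 of the 13 probes and 0% of all, and at an unadjusted p under 0.05 1 of 13 was lower, against 1.29% of all probes.

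Markers of the choroid plexus, the tissue in the ventricle that makes the cerebrospinal fluid, moved with the HFS group. Of 9 such genes 8 passed the filter. All 9 of their probes had an unadjusted p under 0.05 in limma and a higher mean in HFS than in 6-OHDA, though 0 were called. Of all probes 2.24% had such a p in either direction. The median log2 difference over the genes was 2.88. The probes of Kcnj13, Clic6 and Slc4a5 were well above background on 5 of 12 arrays, with their highest signals in HFS rats. They may have passed the filter only through that group, so that their part of the count is no support. The summed signal of the list was 362 to 765 in the 6-OHDA rats, 4554 to 90439 in the HFS rats, 403 to 16829 in the DOPA rats and 275 to 1082 in the DOPA/HFS rats. The signal of Ttr, its defining marker, was 16.30, 11.86 and 15.28 in HFS replicates 1, 2 and 3. With group means removed, the correlation of this list with the mean of the 9 genes was -0.11 (rho = -0.12) over the 12 arrays, and -0.31 without 6-OHDA replicate 3 and DOPA/HFS replicate 1. HFS replicate 1, with the highest Ttr of its group, had the lowest Mbp and Mobp signals there, whereas DOPA replicate 3, with the highest Ttr of its group (13.81 against 2.41 and 10.29), had the highest signal of Mobp A_44_P245674 there (10.74). The part of this tissue in the difference of Mobp was not tested.

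The rest of the lineage was read from 5 lists of oligodendrocyte genes that were not members, 48 genes with 59 probes tested. None was called in the 3 comparisons with 6-OHDA. With HFS, 1 of the 59 probes (2.24% of all probes) had an unadjusted p under 0.05 in limma, that of Enpp2, an enzyme of lysophospholipid metabolism made by oligodendrocytes and by choroid plexus (11.69, 11.49 and 12.51 in the 6-OHDA rats against 12.54, 12.44 and 13.53 in the HFS rats, log2 difference 0.94). With DOPA there was 1 (2.49%), that of Cntn2, an adhesion protein of the juxtaparanode of myelinated axons with a log2 difference of -0.41. With DOPA/HFS there were 3 (2.67%), those of Cntn2 (-0.41), Opalin, a membrane glycoprotein of myelinating cells (-0.38 on 1 of its probes), and Qdpr, a pteridine reductase abundant in oligodendrocytes (-0.33). The median log2 difference over the 59 probes was 0.06 with HFS, -0.08 with DOPA and -0.05 with DOPA/HFS. The groups did not overlap with HFS for 1 probe higher, of Lpar1, a lysophosphatidic acid receptor whose other probes gave 0.03 and -0.09, and 1 lower, of Cntn2, where 2.81% and 2.15% of all probes were. With DOPA 1 was higher, the same Lpar1 probe (its other probes gave -0.04 and -0.14), and 8 were lower (3.15% and 2.95% of all), among them both probes of Opalin, Cntn2, Qdpr and the precursor receptor Pdgfra. With DOPA/HFS 0 were higher and 4 lower (1.74% and 2.38%), those of Cntn2, Qdpr, Opalin and the small heat shock protein Cryab.

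By list, the medians over genes stayed small. Compact myelin and its lipids (6 genes) gave 0.06, -0.10 and -0.03 for HFS, DOPA and DOPA/HFS. Periaxonal and paranodal proteins (10 genes) gave 0.12, -0.08 and 0.00, enzymes and carriers of mature cells (18 genes) 0.14, -0.09 and -0.11, transcription factors (4 of 7 genes passing the filter) -0.03, 0.08 and 0.03, and precursor genes (10 genes) -0.09, -0.13 and 0.01. Cholesterol synthesis, on which myelin membrane depends, had 2 of 18 probes higher with HFS at an unadjusted p under 0.05 (2.24% of all probes in either direction), of Nsdhl (0.42) and Idi1 (0.37), but the second probe of Idi1 gave 0.01. With DOPA there was 1, of Cyp51 (0.48, 2.49% of all probes), and none was called. Peripheral myelin, which Schwann cells make, was read from a list of 3 probes. Egr2, a transcription factor of that list and also a gene of neuronal activity, was at 8.14 to 8.81 in the 6-OHDA rats and at 11.25, 10.06 and 7.96 in the HFS rats, and 0 of the 3 probes had an unadjusted p under 0.05.

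Rats of the same group differed more for some of the 9 genes than for others. Around the group means, the SD of log2 signal was 0.52 and 0.45 on the Mbp probes, 0.48, 0.36 and 0.28 on the Mobp probes, 0.52 for Cldn11 and 0.30 for Cnp. It was 0.24 and 0.21 for Mog, 0.25 for Sox10, 0.20 for Ugt8, 0.17 for Mag and 0.12 for Olig1. Among the 1000 probes nearest in mean signal, the median SD was 0.18 to 0.28 for these 13, and both Mbp probes and Mobp A_44_P353699 lay at percentile 98.3 or above, Cldn11 at 96.6, and Olig1 at 13.4. Mbp A_43_P11782 spanned a 3.05-fold range over the 12 rats, from 14.72 in 6-OHDA replicate 2 to 16.32 in HFS replicate 3, and Olig1 a 1.27-fold range. The median over the 13 probes, 0.28, equals that over all probes tested, which are of any signal and not matched to these 13. Against probes of like signal the other Mobp probes lay at percentiles 90.8 and 70.5 and Cnp at 86.8. Mog lay at 71.6 and 49.2, Sox10 at 66, Mag at 35.1 and Ugt8 at 20.5.

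**Figure D3:**
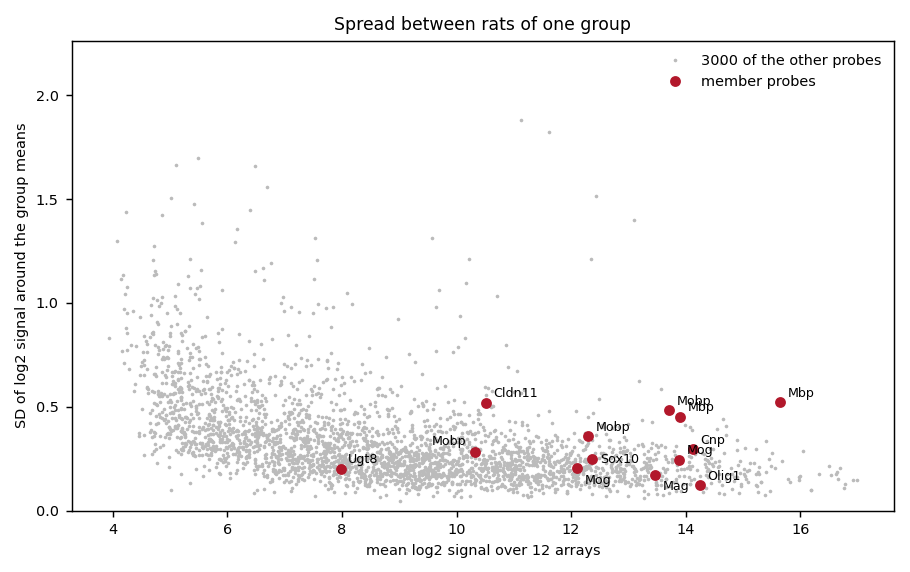
SD of log2 signal around the group means (y axis) against mean log2 signal over the 12 arrays (x axis); red points are the 13 member probes and grey points 3000 of the other probes. Both Mbp probes and Mobp A_44_P353699 lie near the top of the probes of like signal, and Olig1, at 0.12, lies near the bottom.

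The spread was shared among some of the genes. After the group means were removed, Mbp was correlated over the 12 arrays with Mobp (r = 0.96, rho = 0.94) and with Cnp (r = 0.95, rho = 0.94), and Mobp with Cnp (r = 0.94, rho = 0.92). Without the pair of arrays farthest from the median, 6-OHDA replicates 2 and 3, these correlations were 0.92, 0.92 and 0.86. With the slide means removed too, Mbp stood at 0.96 with Mobp and 0.94 with Cnp. These are 3 of 36 pairs of genes, and arrays share slide, labelling and dissection. Mbp entered through the probe that was saturated on no array. Cldn11 followed Mbp in part (r = 0.66), as did Mag (r = 0.70) and Olig1 (r = 0.68), though without those arrays Mag stood at 0.45 and Olig1 at 0.35.

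Other correlations ran through Mog, with Ugt8 and with Sox10. Ugt8 and Sox10 themselves were correlated at r = 0.36 (rho = 0.28), and at -0.05 without DOPA replicates 2 and 3. With its probes averaged, Mog was correlated with Sox10 (r = 0.74, rho = 0.71) and with Ugt8 (r = 0.74, rho = 0.74), with Mobp at 0.43, with Mbp at 0.24 and with Cnp at 0.17, and Mbp with Sox10 at -0.02. Without DOPA replicates 2 and 3 the correlation of Mog with Ugt8 was 0.39 and rests on those rats, while that with Sox10 was 0.61, with Mobp 0.53 and with Cnp 0.48. In DOPA replicate 2 the deviations were 0.35 for Mog, 0.32 for Ugt8 and 0.35 for Sox10, but 0.03 for Mbp and -0.08 for Cnp. In 6-OHDA replicate 3, Mbp stood 0.72, Mobp 0.61, Cnp 0.51 and Cldn11 0.44 above the group mean, with Mog at 0.13 and Sox10 at 0.12. Replicate 2 of the same group was at -0.62 for Mbp, -0.38 for Mobp and -0.31 for Cnp, with Sox10 at 0.20.

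**Figure D4:**
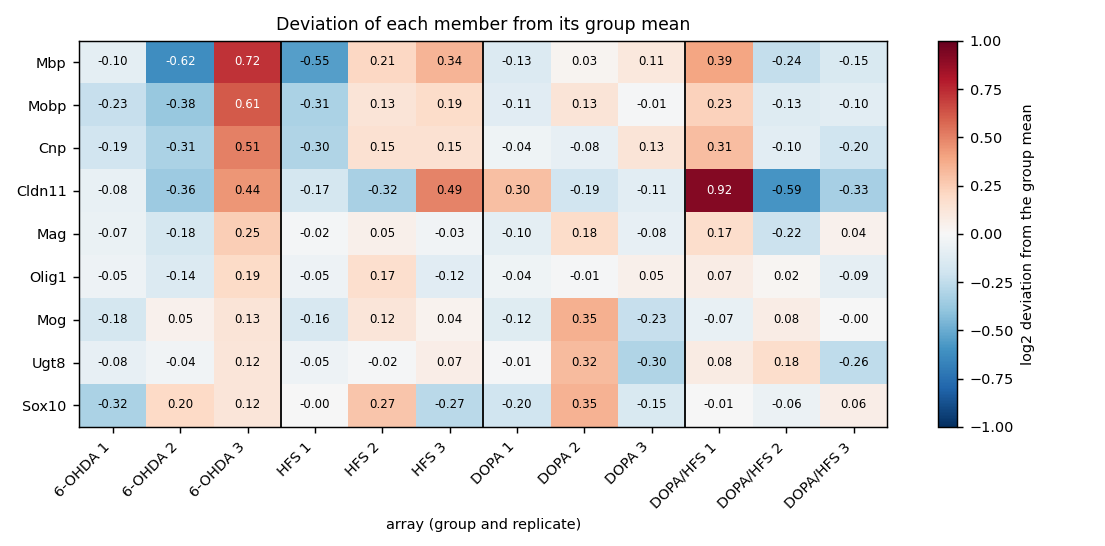
Log2 deviation of each gene (rows) from the mean of its group on each array (columns), red above and blue below the mean; black lines part the 4 groups. The rows of Mbp, Mobp and Cnp change sign together on most arrays, with 6-OHDA replicate 3 highest for all 3 genes, whereas Sox10 stands at 0.20 in 6-OHDA replicate 2, where Mbp is at -0.62.

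The sequence before the start was read for genes that varied together more or less closely. The RefSeq table for the assembly GRCr8 holds a promoter window for 6 of the 9 genes (Mbp, Mag, Mobp, Cnp, Cldn11 and Ugt8). The 250 bases before the start were searched for ACAAAG on both strands (CTTTGT on the other), the core letters that SOX factors such as Sox10 bind, and for CAGCTG, an E-box of the kind bound by basic helix-loop-helix factors. The windows of Mobp and Cnp are shown because these genes varied together over the arrays. That of Mag is shown because it varied with them less closely (r = 0.78 with Mobp and 0.62 with Cnp). Ugt8 followed them less than Mag did (r = 0.39 with Mobp and 0.22 with Cnp), and its window is not shown. The windows run 5' to 3' on the strand of the gene with the matches in capitals. Mobp lies at chr8:128746982-128747231 (+), Cnp at chr10:86011254-86011503 (+) and Mag at chr1:95291045-95291294 (-).
Mobp: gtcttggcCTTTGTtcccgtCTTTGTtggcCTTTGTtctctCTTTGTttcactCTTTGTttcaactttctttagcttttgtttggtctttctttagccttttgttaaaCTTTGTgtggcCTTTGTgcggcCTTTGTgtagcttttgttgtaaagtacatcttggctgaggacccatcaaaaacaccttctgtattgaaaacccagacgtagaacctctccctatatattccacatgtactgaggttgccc
Cnp: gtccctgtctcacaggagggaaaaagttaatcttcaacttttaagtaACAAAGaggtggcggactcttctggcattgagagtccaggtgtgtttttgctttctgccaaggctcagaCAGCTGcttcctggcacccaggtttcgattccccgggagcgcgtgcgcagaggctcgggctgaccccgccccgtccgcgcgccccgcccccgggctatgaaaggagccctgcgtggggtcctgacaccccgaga
Mag: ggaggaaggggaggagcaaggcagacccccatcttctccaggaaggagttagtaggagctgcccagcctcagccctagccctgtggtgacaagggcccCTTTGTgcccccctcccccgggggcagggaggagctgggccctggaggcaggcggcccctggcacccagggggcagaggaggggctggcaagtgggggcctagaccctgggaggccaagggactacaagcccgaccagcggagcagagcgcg
Mobp holds 8 matches to ACAAAG or CTTTGT, Cnp 1 and Mag 1, while Cldn11 and Ugt8 hold 0. All 8 in Mobp read CTTTGT and stand in 1 repetitive stretch, in the part of the window farther from the start. They are therefore not 8 unrelated matches. Mbp, the gene most closely correlated with Mobp, has 2 windows in the table, of which 1 holds 0 matches and the other 1. Of all 33469 windows of that length, 16.3% hold at least 1, and 2 windows hold 8 or more. CAGCTG stands 1 time in the Cnp window and 1 time in the second Mbp window, and 12.0% of all windows hold it. A match in this window is a description of the letters and says nothing about binding in these rats.

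The variation between arrays of the same group was not confined to the 9 genes. Each array stands for 1 rat, so that differences between rats, dissections, labellings and arrays cannot be told apart. Each probe was compared with the mean deviation of the 9 genes over the 12 arrays, the own gene left out for a member. Among the members r was highest for Mobp A_44_P167930 (0.94), Mobp A_44_P353699 (0.90), Cnp (0.87) and Mbp A_44_P334799 (0.86), and lowest for Sox10 (0.13) and Mog A_43_P12283 (-0.05), although the other Mog probe stood at 0.74. Of 24321 other probes, 4.72% had r of at least 0.8 and 4.41% had r of -0.8 or less.

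The 10 named genes with the highest r included Gga1 (0.98), Dyrk1a (0.97), Cln8 (0.96), Mafg (0.96), Fkbp5 (0.96), Ipo13 (0.96), Abcb8 (0.95), Rangap1 (0.95) and Btbd9 (0.95), and without the 2 arrays farthest from the median these were 0.89 to 0.95. Gga1 is an adaptor of Golgi traffic, Dyrk1a is a kinase, Fkbp5 is a chaperone of the glucocorticoid receptor, and none of the 10 is on a list of oligodendrocyte genes. The 3 lowest were Armc8 (-0.99), Cdc42bpb (-0.98) and Odz3 (-0.98). These neighbours depended on the scaling, since 3 of the 10 were among the 10 highest under scaling to the 75th percentile.

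A pattern over all probes ran along with Mbp, Mobp and Cnp. The first principal component of the deviations of all probes held 36.8% of their variance. Its correlation was 0.83 with Mbp, 0.80 with Cnp, 0.77 with Cldn11 and 0.69 with Mobp, against -0.30 with Mog and -0.49 with Sox10 (0.73, 0.66, 0.67, 0.48, -0.49 and -0.74 without 6-OHDA replicate 3 and DOPA/HFS replicate 1). Probes of the same gene need not follow it alike: the deviations of both Mbp probes were correlated at 0.98, but those of both Mog probes at 0.47 and those of the Mobp probes at 0.31 to 0.78. Over 960 genes with a pair of probes the median was 0.49. The part of this pattern in the shared spread of Mbp, Mobp and Cnp was not tested.

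Other lists show where the 9 genes stood among cell types. Mean deviation of enzymes and carriers of mature oligodendrocytes followed that of the 9 genes with r = 0.94 (rho = 0.89), that of periaxonal proteins with 0.87, of lineage transcription factors with 0.82, of compact myelin and its lipids with 0.58 and of precursor genes with 0.45. Without 6-OHDA replicate 3 and DOPA/HFS replicate 1 these were 0.86, 0.84, 0.72, 0.27 and -0.08. Single probes ran both ways. Car2 (0.92), Sirt2 (0.86), Olig2 (0.86) and Tf (0.83) were among the highest, whereas Gsn (-0.65), Aspa (-0.47), Cryab (-0.50), Nkx2-2 (-0.45) and 1 of the Opalin probes (-0.66) were negative, as were 4 of 22 mature and 4 of 13 periaxonal probes in all. Genes of striatal projection neurons, which make no myelin, had r = 0.96 (rho = 0.92, and r = 0.93 without those arrays) as a list. Its probes ran from Drd2 at 0.85 and Pde10a at 0.79 to Penk at 0.12 and 0.09 and an Adora2a probe at -0.11, with 10 of 11 above 0. Microglia stood at 0.60 as a list, in which Itgam had an SD of 1.45, but 6 of its 10 probes were below 0, with a median of -0.28. Astrocyte genes stood at 0.36, endothelium at 0.46, peripheral myelin at 0.14, cortex at 0.09 and choroid plexus at -0.11. Without 6-OHDA replicate 3 and DOPA/HFS replicate 1, microglia stood at 0.60, astrocytes at 0.20 and endothelium at 0.36. Peripheral myelin then stood at -0.27, cortex at 0.37 and choroid plexus at -0.31. The summed signal of the projection neuron list was 239117 to 321867 in the 6-OHDA rats and 264150 to 297172 in the HFS rats.

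**Figure D5:**
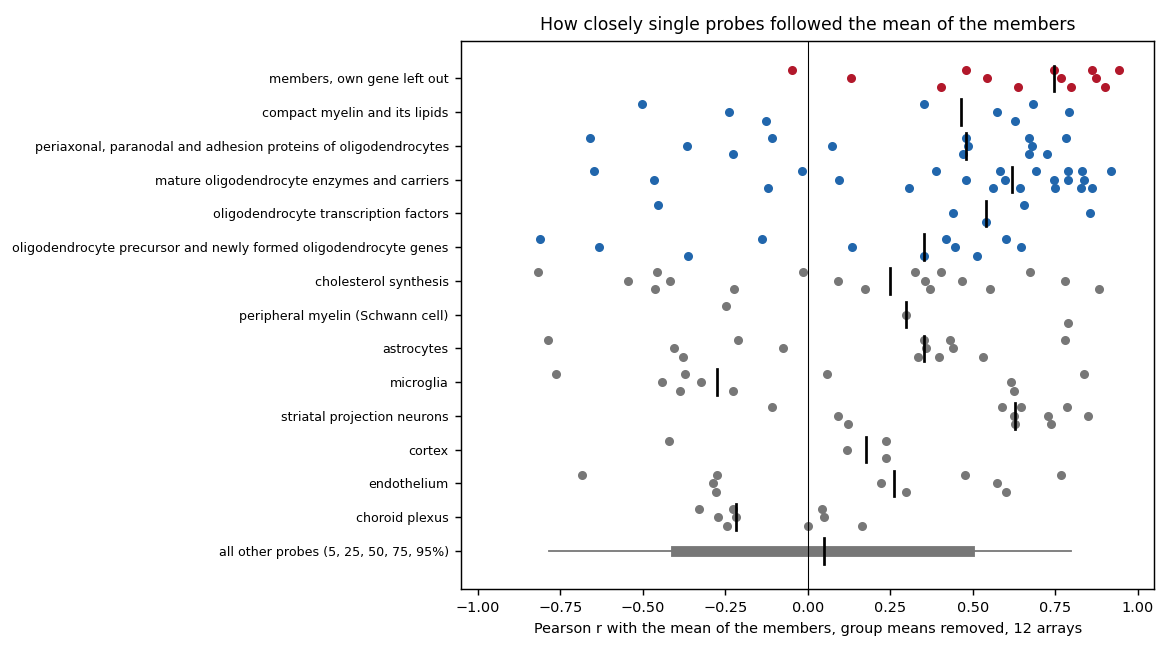
Pearson correlation of single probes with the mean of the 9 genes over the 12 arrays, group means removed (x axis), for the members (red, own gene left out), oligodendrocyte lists (blue) and other lists (grey), with the median of each as a bar; the lowest row gives percentiles of all other probes. Projection neuron probes have a median of 0.63 and mature oligodendrocyte probes 0.62, against 0.05 for all other probes.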

How the data were processed

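Total RNA of the dorsal striatum of 12 rats was labelled with Cy3 and hybridised to 12 single-colour Agilent rat arrays. The authors deposited scanner files with an intensity for each spot, from which Agilent Feature Extraction 9.1 (per the labels) had already subtracted background. The deposited log2 table, quantile normalized by the authors, served as an alternative. Spots of controls and spots marked as outliers were dropped. The intensities were put on the log2 scale, normalized by quantiles, and a mean was taken over spots of the same probe. A probe was tested if it stood well above background on at least a 0.4 share of the arrays. limma 3.58.1 in R 4.3.3 was fitted to all 12 arrays without a block, with Benjamini-Hochberg adjustment over all tested probes. RefSeq (GRCr8) named 10735 of 41012 probes, and the others kept the names in the files. Arrays give no count of molecules, and 3 arrays in each group limit the precision. The fit was tested on simulated data.

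The members and lists were chosen with earlier results of these data known. Named were all probes of the members, the 10 genes with the highest and the 3 with the lowest correlation with their mean, examples from the lists and any called probe. Genes named for groups that did not overlap were chosen after their values were seen. Correlations were taken over the 12 arrays with group means removed and carry no p. The alternatives were scaling to the 75th percentile, normexp background correction (offset 50), the deposited table, other filters, other rules for the probe of a gene, treatment of saturated and outlier spots, the replicate number as a block, the arrays fitted, the limits of a call and the omission of each array. Leaving out Cnp was added after seeing the data. Values of some single genes of the lists and of the neighbours are not reported here.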

Additional observations from a re-analysis of the deposited data

Results flagged for a closer look

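On Mobp probe A_44_P245674 the 3 HFS rats lay above the 3 6-OHDA rats, as for 2.81% of all probes. The 3 DOPA/HFS rats lay below the 3 DOPA rats, as for 5.64%. The share of all probes with both is not given, and on the other Mobp probes the groups overlapped in both comparisons. The log2 difference DOPA/HFS minus DOPA was -0.33 (SE 0.22, unadjusted p = 0.165 in limma), and the other Mobp probes gave 0.06 and -0.03 there. The interaction was -1.06 on the log2 scale (SE 0.32, unadjusted p = 0.00658 and adjusted p = 1 in limma), which fails the correction over all probes. Across the alternatives it ran from -1.32, without 6-OHDA replicate 3, to -0.74, with the 3 Mobp probes averaged, and the lowest adjusted p was 0.993.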

How the results depend on the processing

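Over 1985 values of the 13 probes under the alternatives, 0 were called and 117 had another sign than the reported value, 0 of them where that value exceeded its SE. The count of all probes called, 1 for DOPA vs 6-OHDA, was 0 with an adjusted p under 0.05, with the deposited table, with the mean of the probes of each gene, without a filter and with the replicate block, 2 with outlier spots kept, 3 with only the arrays compared, and 0 to 15 with 1 array left out (15 without DOPA/HFS replicate 1). Over the 4 groups, also 1, it was 0 under the same alternatives apart from no filter, and under 75th percentile scaling and with saturated spots left out, 2 with a filter of all 3 arrays of a group and with outlier spots kept, 5 without a filter, and 0 to 15 with 1 array left out (15 again without DOPA/HFS replicate 1). The count of 0 became 1 with the filter of all 3 arrays for HFS vs 6-OHDA, DOPA/HFS vs HFS and the interaction, 4 without a filter for HFS vs 6-OHDA and DOPA/HFS vs HFS, and 1 with the replicate block for the interaction. Leaving out 1 array gave 0 to 2 for HFS vs 6-OHDA and for the interaction (2 without HFS replicate 3), 0 to 3 for DOPA/HFS vs 6-OHDA (3 without DOPA/HFS replicate 1) and 0 to 3 for DOPA/HFS vs HFS (3 without DOPA/HFS replicate 1 or HFS replicate 3). The cause was not tested.

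Groups of the members that did not overlap numbered 1 for DOPA and 1 for DOPA/HFS against 6-OHDA under 75th percentile scaling (0 otherwise), both Olig1, lower. The median log2 difference over all probes was -0.02 for DOPA and -0.03 for DOPA/HFS under that scaling. The share of all probes is not given for it, so that the Olig1 counts cannot be judged against it. For HFS the number was 0 with the brightest probe or the mean of the probes of each gene. The median log2 difference of the 9 genes ran from -0.03 to 0.16 for HFS, from -0.17 to 0.00 for DOPA and from -0.14 to 0.10 for DOPA/HFS. That of Mobp A_44_P245674 with HFS ran from 0.49 to 0.99, with a lowest adjusted p of 0.559 in limma. Mbp was correlated with Mobp at 0.90 to 0.96 and with Cnp at 0.91 to 0.95. Of the 10 genes that followed most closely, 3 were among the 10 highest under 75th percentile scaling, 3 with group means not removed and 2 with slide means removed too. Rats with the same replicate number shared a slide. The deviations of 10 of 18 pairs with the same number were correlated over 0.1 (range -0.32 to 0.49, median 0.11, against -0.05 for other pairs), and 5 of 12 arrays correlated best with their own number. With the replicate block 0 of the 13 probes were called, and Mbp A_43_P11782, which lacks a value in DOPA/HFS, differed by 0.59 in place of 0.36 for DOPA/HFS vs 6-OHDA. With 3 rats in each group the stated intervals were wide, and the smallest difference that could be detected was not computed.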
